A study of Mus musculus with 10 samples.

Results

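The 10 genes described here encode the potassium channel subunits that hold the resting potential of heart muscle cells or open in response to a receptor or to the energy state of the cell. They were chosen by name, with earlier results of these data known. They include the inward rectifier genes Kcnj2, Kcnj3, Kcnj5 and Kcnj12 and the background channel genes Kcnk2 and Kcnk3. The others are the pore and regulatory genes of the ATP-sensitive (KATP) channel, Kcnj8, Kcnj11, Abcc8 and Abcc9. All 10 were listed among the 23337 genes of the table, and 9 of them had enough reads to enter the test, which covered 13084 genes. Kcnk2 was not tested.

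Right atrial RNA was sequenced from 10 libraries, 4 labelled control and 6 labelled Tbx5 mutant. The mutant mice carried a Cre recombinase under the R26 promoter, which is active in nearly every cell type, so that excision of exon 3 of Tbx5 was not limited to heart muscle cells. The labels give every library the same treatment text, with intraperitoneal tamoxifen at 0.167 mg per day for 3 days and death 1 week after tamoxifen. The control genotype is given only as "Control", and the labels do not say whether those mice carried the Cre. All mice were of mixed strain, labelled 8-10 weeks old, although the extraction text gives a younger range, and globin RNA was depleted before library preparation.

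The whole-gene level of Tbx5, the gene targeted in the mutant mice, was higher and not lower in the mice labelled mutant. It was 184 to 224 CPM (counts per 1000000 counts of the TMM-scaled library size) in the 4 mice labelled control and 275 to 475 CPM in the 6 mice labelled Tbx5 mutant. The counts cover the whole gene and do not separate exon 3, so they cannot show whether it was excised. Every direction below is relative to the labels. Library totals were 5703775 to 7095141 counts. In mutant M3, 38.9% of the counts came from the ribosomal RNA gene Rn45s, against 0.268 to 1.49% in the others. Xist and Ddx3y reads went against the sex labels of all 4 control mice and matched those of the 6 mutant mice. Nothing in the labels says that a library is 1 animal, so the p-values measure the spread between these libraries. A library is called a mouse here only for short.

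Inward rectifiers pass potassium more easily into the cell than out of it near the resting potential. The Kir3 channel of the atrium, built from the products of Kcnj3 and Kcnj5, opens when G protein beta-gamma subunits are released by the muscarinic M2 receptor or the adenosine A1 receptor, and slows the heart under vagal tone. The KATP channel joins a Kir6 pore to a sulfonylurea receptor and opens when ATP falls, and the K2P channels, whose subunits each carry a pair of pore domains, pass a background potassium current.

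The sequences around the start sites of Kcnj3 and Kcnj5 are shown because these genes had the largest fold changes of the 9 tested, and that of Kcnj8 because it was the other window with a T-box motif. Each run covers 250 bases before and 50 bases after the RefSeq transcript start in GRCm38.p6, written 5′ to 3′ on the strand of the gene, with the T-box motif AGGTGT, here on the reverse strand, in capitals as its reverse complement. The windows are chr2:55435720-55436019 on the plus strand for Kcnj3, chr9:32344295-32344594 on the minus strand for Kcnj5 and chr6:142571565-142571864 on the minus strand for Kcnj8.
Kcnj3: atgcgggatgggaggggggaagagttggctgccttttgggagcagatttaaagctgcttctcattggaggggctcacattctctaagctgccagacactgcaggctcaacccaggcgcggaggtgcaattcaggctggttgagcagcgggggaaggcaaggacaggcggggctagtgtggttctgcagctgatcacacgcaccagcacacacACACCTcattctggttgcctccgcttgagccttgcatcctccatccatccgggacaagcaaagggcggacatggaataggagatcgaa
Kcnj5: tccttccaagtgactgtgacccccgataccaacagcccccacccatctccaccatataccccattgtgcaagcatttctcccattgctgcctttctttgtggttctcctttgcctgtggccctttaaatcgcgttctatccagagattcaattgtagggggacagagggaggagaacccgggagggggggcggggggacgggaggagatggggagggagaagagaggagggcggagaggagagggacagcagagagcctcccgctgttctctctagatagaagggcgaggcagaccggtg
Kcnj8: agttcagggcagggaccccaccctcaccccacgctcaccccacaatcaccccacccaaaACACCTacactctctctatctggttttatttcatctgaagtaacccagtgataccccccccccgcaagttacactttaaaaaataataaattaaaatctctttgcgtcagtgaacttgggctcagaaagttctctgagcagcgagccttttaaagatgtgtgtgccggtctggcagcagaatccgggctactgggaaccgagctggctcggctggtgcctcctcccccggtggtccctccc

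The T-box motif began 38 bases before the Kcnj3 start and 191 bases before the Kcnj8 start, both on the reverse strand. It was searched on both strands as the 6 letters AGGTGT, and 13.741% of 32851 RefSeq windows of 300 bases held it. RefSeq windows were matched for 7 of the 10 genes, Kcnj2, Kcnj3, Kcnj5, Kcnj8, Kcnj12, Abcc9 and Kcnk2. The windows of Kcnj2, Kcnj5, Kcnj12, Abcc9 and Kcnk2 did not hold these letters. The GATA motif AGATAA, searched in the same way, was in none of the members' windows and in 11.178% of all windows. A match of 6 letters is a description of the sequence and not a measured binding site. Promoters of Kcnj11, Abcc8 and Kcnk3 were not analysed here.

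A gene was called when its adjusted p (edgeR quasi-likelihood test, Benjamini-Hochberg over all 13084 genes) was under 0.05, its fold change was over 1.5 and its mean deposited normalised count in the control mice was over 1. By this rule 4 of the 9 members tested had lower levels in the mutant mice, Kcnj3, Kcnj5, Kcnk3 and Abcc8, where 7.16% of all genes tested were called lower. None was called higher by edgeR, where 8.50% of all genes were. With DESeq2 and with limma 0 of the 9 were called higher too, where 8.62% and 8.36% of all genes were. At an unadjusted p under 0.05 in edgeR 0 of the 9 were higher, against 21.7% of all genes. At an adjusted p under 0.05 without regard to fold size, 6 of the 9 were lower, against 15.0% of all genes, the other 2 being Abcc9 and Kcnj12. Kcnj3, Kcnj5, Kcnk3 and Abcc8 were also called lower in each of the 10 fits that left out 1 mouse, the one without mutant M3 included. Every mutant mouse lay below every control mouse for 5 of the 9, against 11.0% of all genes. The median log2 fold change was -0.58 over the 9 members and -0.0050 over all genes tested. The members were chosen with earlier results of these data known, so these shares and medians are a description and not a test of the set.

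Log2 fold changes were lower in longer genes, with a Spearman correlation of -0.31 between log2 fold change and transcript length over the genes tested, which are not independent replicates and share the 10 libraries. After a trend of the counts on transcript length was taken out of each library this was 0.0045. The members called lower were still called, at -2.04 for Kcnj3, -1.98 for Kcnj5, -1.18 for Kcnk3 and -0.90 for Abcc8. Of the others, Abcc9 moved to -0.37 and Kcnj2 to -0.15, while Kcnj12 was at -0.42, Kcnj8 at -0.36 and Kcnj11 at -0.41. The cause of this trend was not tested.

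**Figure D1:**
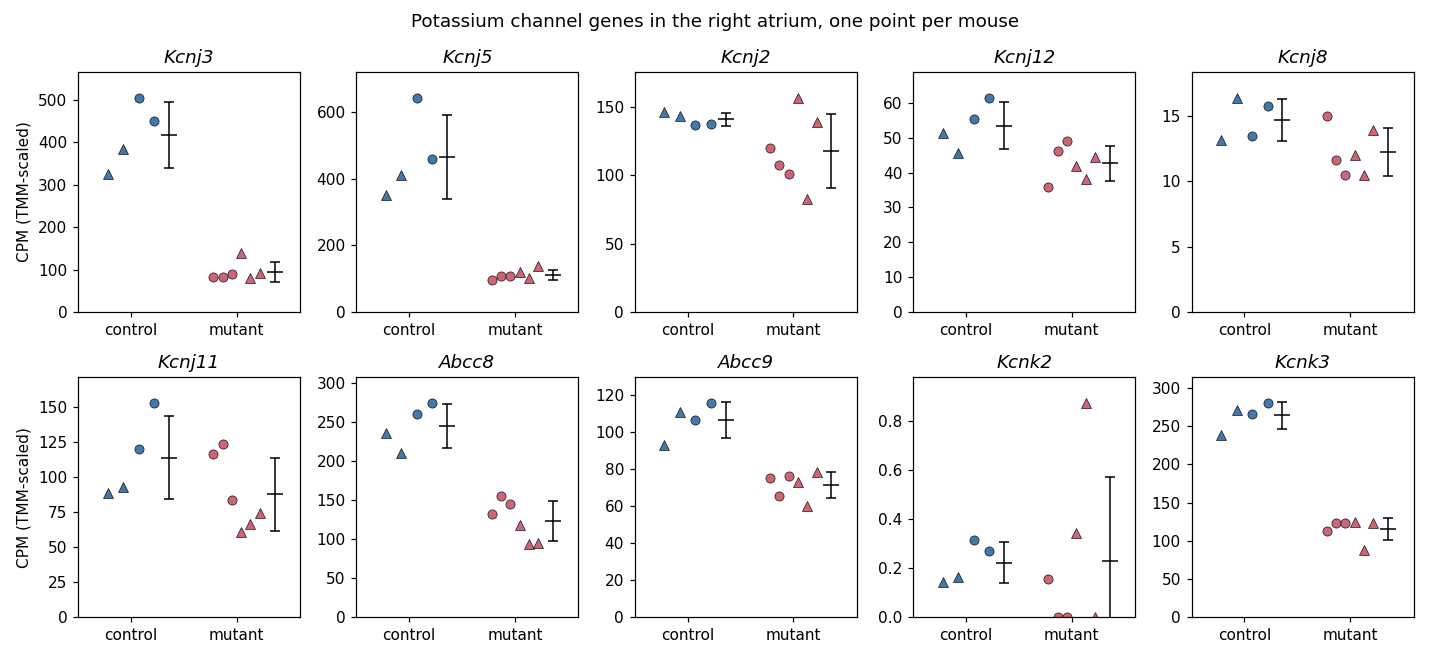
CPM (y axis, linear, from 0) of each of the 10 genes in the 4 mice labelled control (blue) and the 6 labelled Tbx5 mutant (red), with triangles for mice labelled male, circles for those labelled female, and a bar for the mean ± SD of each group (cut at 0 for Kcnk2). The groups are apart for Kcnj3, Kcnj5, Abcc8, Abcc9 and Kcnk3, and overlap for Kcnj2, Kcnj12, Kcnj8, Kcnj11 and Kcnk2.

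Kcnj3, which encodes the Kir3.1 subunit, fell to 22.7% of its control level. Its level was 325 CPM in control M1, 385 in M2, 505 in F1 and 450.0 in F2, and in the 6 mutant mice it ran from 79.9 CPM through a median of 86.4 to 140.2 CPM. Every mutant mouse was below every control mouse, and mutant M1 was the highest of its group. The means were 416 ± 78.1 CPM (SD, n = 4) and 94.6 ± 22.8 CPM (SD, n = 6), a log2 fold change of -2.14 (SE 0.16, edgeR adjusted p = 8.57e-07). Kcnj3 lies at chr2:55435970-55598145 on the plus strand (GRCm38, GENCODE M21) and its longest transcript has 4 exons and 5215 bases. Of its exon bases, 1621 are shared with Gm26794, a noncoding gene on the opposite strand. Gm26794 is not among the genes of the table. Whether the counting used strand is not stated, so reads of Gm26794 over those bases may have been counted as Kcnj3.

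Kcnj5, which encodes Kir3.4, the partner of Kir3.1 in the atrial channel, fell to 24.0% of its control level. The control mice had 349.8 CPM (M1), 411 CPM (M2), 642 CPM (F1) and 458 CPM (F2), and the mutant mice had a lowest value of 95.6, a median of 107 and a highest of 139 CPM. The groups did not overlap, and the control mice varied more than the mutant mice. The means were 465 ± 126 CPM (SD, n = 4) and 112 ± 15.5 CPM (SD, n = 6), a log2 fold change of -2.06 (SE 0.15, edgeR adjusted p = 7.03e-07). Kcnj5 lies at chr9:32314707-32344350 on the minus strand, with 4 exons and 4685 bases in its longest transcript, and shares no exon bases with another annotated gene. For Kcnj3 and for Kcnj5 the exact two-sided permutation test over the 210 assignments of 4 and 6 mice gave p = 0.0095, the smallest it can give here. Abcc8, Abcc9 and Kcnk3, the other members whose groups did not overlap, had the same value.

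The mean share of each gene in the pair was similar in both groups, with a wider spread in the mutant mice. Per kilobase of longest transcript, Kcnj3 made up 44.9% ± 2.40 (SD, n = 4) of the summed CPM of Kcnj3 and Kcnj5 in the control mice and 42.9% ± 4.65 (SD, n = 6) in the mutant mice. The control mice ran from 41.4 to 46.9%, and 4 of the 6 mutant mice lay outside that range, F2 at 40.7%, M2 at 41.1% and M3 at 37.3% below it and M1, with the highest Kcnj3, at 51.2% above it. Of the summed CPM per kilobase of all 10 genes, Kcnj3 and Kcnj5 together held 40.1 to 50.6% in the control mice and 19.9 to 27.8% in the mutant mice, so that the groups did not overlap.

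**Figure D2:**
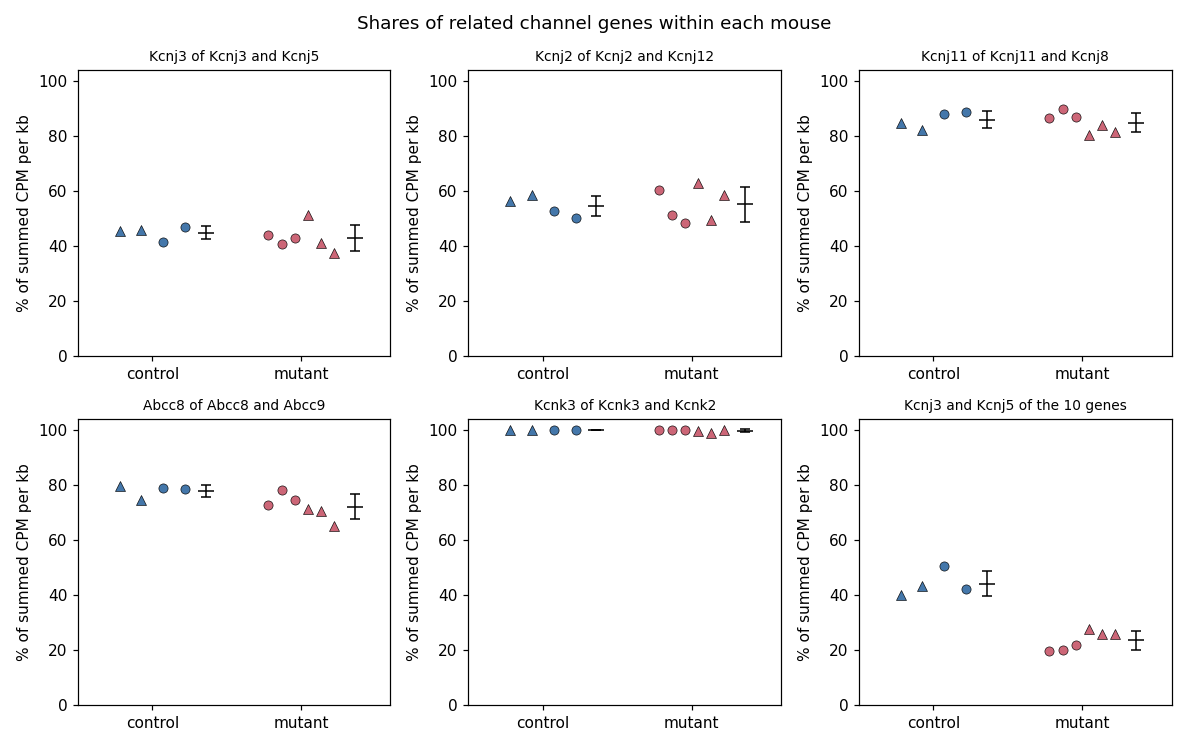
Share (y axis, percent of summed CPM per kilobase of longest transcript, 0 to 100) of 1 gene within each pair of related genes, and of Kcnj3 and Kcnj5 together among the 10 genes, in each mouse. Blue points are labelled control and red points labelled Tbx5 mutant, triangles are labelled male and circles labelled female, and bars are the mean ± SD. Only the share of Kcnj3 and Kcnj5 among the 10 genes separates the groups, at 40.1 to 50.6% against 19.9 to 27.8%.

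In bulk tissue, fewer cells of a type and less RNA per cell cannot be told apart. Cardiomyocyte and atrial markers are given beside these results for that reason. Of the 5 cardiomyocyte markers, Tnnt2 and Actc1 were called higher in the mutant mice and none lower, and Actn2 was higher at an adjusted p under 0.05 only. Ttn, with a log2 fold change of -0.67 (SE 0.34, edgeR adjusted p = 0.15), had the most counts of the 5, at a mean of 82383 CPM in the control mice and 51937 CPM in the mutant mice. The sum of the 5, most of it Ttn, ran from 94685 to 150187 CPM in the control mice and from 67387 to 135983 CPM in the mutant mice. Myh6, the major cardiac myosin of the adult mouse, had a log2 fold change of 0.10 (SE 0.18, edgeR adjusted p = 0.71). Of the 4 atrial markers Myl7, Sln and Nppa were called lower, Myl4 passed the adjusted p but not the fold, and their sum was 39387 to 44180 CPM in the control mice and 16499 to 31514 CPM in the mutant mice. The part of these markers in the channel results was not tested.

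Among the receptors, G proteins and regulators upstream of Kir3, both receptor genes were called lower. Of the 12 genes tested, 3 were called lower and none higher, and their median log2 fold change was -0.0072. Chrm2, the muscarinic M2 receptor, had 225, 235, 343 and 334 CPM in control M1, M2, F1 and F2 and 136 to 200 CPM in the mutant mice, with a log2 fold change of -0.89 (SE 0.14, edgeR adjusted p = 0.00050). The control mice labelled F were the highest for Chrm2, as they were for Kcnj3 and Kcnj5, and no mutant mouse reached the lowest control mouse. Adora1, the adenosine A1 receptor, had a log2 fold change of -0.68 (SE 0.15), and Gnao1, an inhibitory G protein alpha subunit, of -0.69 (SE 0.12). Adora1 was under the fold of 1.5 without control F1 (-0.53) and with the length trend removed (-0.58), and Gnao1 with the length trend removed (-0.57). Gnai2, Gnai3 and Rgs4 were higher and Rgs6, a brake on Kir3 signalling, lower at an adjusted p under 0.05 without passing the fold threshold. The beta subunit genes Gnb1, Gnb2, Gnb4 and Gnb5 did not pass the test, with log2 fold changes between -0.12 and 0.16.

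The strong inward rectifiers of the Kir2 family, which set the resting potential, were not called. Kcnj2, the gene of Kir2.1, was at 146, 143, 137 and 137 CPM in control M1, M2, F1 and F2. In the mutant mice Kcnj2 ran from 82.3 through a median of 114 to 157 CPM. The control mice lay within a narrow range, and the mutant mice spread on both sides of it, with 4 of the 6 below every control mouse and M1 above all of them. The log2 fold change was -0.26 with a 95% interval of -0.57 to 0.05 (edgeR adjusted p = 0.18), and without mutant M1 it was -0.37 (adjusted p = 0.036). Kcnj2 lies at chr11:111066164-111076821 on the plus strand and has 2 exons.

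Kcnj12, the gene of Kir2.2, was at 51.3, 45.7, 55.3 and 61.5 CPM in control M1, M2, F1 and F2, and at 35.8, a median of 43.2 and 49.1 CPM as lowest, middle and highest of the mutant mice. The groups overlapped, and 4 of the 6 mutant mice were below every control mouse. The log2 fold change was -0.33 (SE 0.11, edgeR adjusted p = 0.035), past the adjusted p but under the fold of 1.5. The adjusted p was over 0.05 without control M1, F1 or F2 and without mutant F1 or M2, between 0.062 and 0.13. Kcnj12 lies on the same chromosome at chr11:61022564-61071131, also on the plus strand. Kcnj2 made up 54.5% ± 3.72 (SD, n = 4) of the summed CPM per kilobase of both genes in the control mice and 55.1% ± 6.21 (SD, n = 6) in the mutant mice, with overlapping ranges.

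Among genes whose products bind or scaffold Kir2.1 in the cell membrane, 3 were examined. Akap5, a kinase anchor, was called lower with a log2 fold change of -1.15 (SE 0.29, edgeR adjusted p = 0.0090) from only 2 to 19 counts a mouse. Cav3, the muscle caveolin, was called higher at 1.06 (SE 0.13, edgeR adjusted p = 5.54e-05), with 30.6 to 42.0 CPM in the control mice and 60.5 to 94.2 CPM in the mutant mice. Dlg1, the scaffold SAP97, had -0.53 (SE 0.12), past the adjusted p only.

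The pore subunits of the KATP channel were not called. Kcnj8, the gene of Kir6.1, which is best known from vascular muscle and pericytes, was at 13.1, 16.4, 13.5 and 15.7 CPM in control M1, M2, F1 and F2 and at 10.5 to 15.0 CPM, with a median of 11.8, in the mutant mice. Its log2 fold change was -0.27 with a 95% interval of -0.56 to 0.01 (edgeR adjusted p = 0.13), and the groups overlapped. Of the 9 members tested it had the lowest level in both groups, at 5.76 CPM per kilobase of longest transcript in the control mice and 4.80 in the mutant mice. Kcnj8 lies at chr6:142564837-142571614 on the minus strand.

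Kcnj11, the gene of Kir6.2, the pore of the heart muscle KATP channel, was at 88.7, 93.1, 120.3 and 153 CPM in control M1, M2, F1 and F2, and at 60.9, a median of 79.3 and 123 CPM in the mutant mice. The ranges overlapped widely, and within each group the mice labelled F were higher than those labelled M. In the control mice the means were 137 CPM for the 2 labelled F and 90.9 CPM for the 2 labelled M, and in the mutant mice 108 CPM for the 3 labelled F and 67.4 CPM for the 3 labelled M. The log2 fold change was -0.37 with a 95% interval of -0.82 to 0.07 (edgeR adjusted p = 0.18). With the labelled sex as a covariate it was -0.39 (adjusted p = 0.023), and with the sex of the control mice exchanged, as Xist and Ddx3y place them, -0.41 (adjusted p = 0.16). The fold of 1.5 was not passed in any of these fits.

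Of the sulfonylurea receptor subunits, which surround and regulate the pore, Abcc8 was called lower and Abcc9 was just short of it. Abcc8, the gene of SUR1, was at 235, 209.8, 259.9 and 274 CPM in control M1, M2, F1 and F2, and at 94.4 to 155 CPM, with a median of 125, in the mutant mice. No mutant mouse reached the lowest control mouse, and the mice labelled F were higher within each group. Xist and Ddx3y go against these sex labels in the control mice. The means were 245 ± 28.3 CPM (SD, n = 4) and 123 ± 25.4 CPM (SD, n = 6), a log2 fold change of -0.99 (SE 0.14, edgeR adjusted p = 0.00020). Abcc8 lies at chr7:46104523-46180033 on the minus strand, and Kcnj11, at chr7:46093953-46100764 on the same strand, is 3758 bases away with no annotated gene between them.

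Abcc9, the gene of SUR2, was at 93.2, 111, 107 and 116 CPM in control M1, M2, F1 and F2, and at 60.3, a median of 74.5 and 78.4 CPM in the mutant mice. The groups did not overlap. The log2 fold change of -0.58 (SE 0.094, edgeR adjusted p = 0.00051) was a fold of 1.49, just under the threshold of 1.5. It was past that threshold in 5 of the 10 fits that left out 1 mouse, without control M1 or without mutant F1, F3, M1 or M3, where it was between -0.63 and -0.59. With the length trend removed the adjusted p was 0.0098, at -0.37. Abcc9, at chr6:142587862-142702315 on the minus strand, and Kcnj8 are neighbours, 16247 bases apart with no annotated gene between them. Abcc9 shares 158 exon bases with the antisense gene 5330439B14Rik, which is among the genes of the table, and how reads over those bases were assigned is not known.

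**Figure D3:**
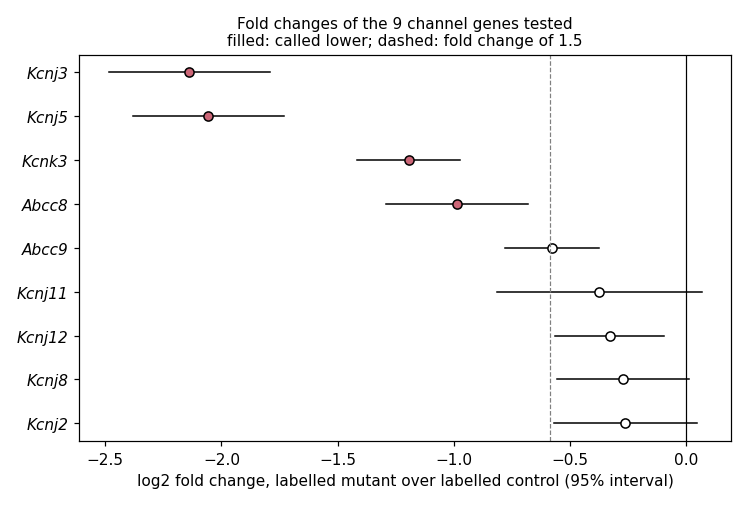
Log2 fold change of the mice labelled Tbx5 mutant over those labelled control (x axis) for the 9 genes tested, with 95% intervals of the edgeR fit, filled points for genes called lower and a dashed line at a fold of 1.5. Kcnj3 and Kcnj5 stand at -2.14 and -2.06, Kcnk3 at -1.19 and Abcc8 at -0.99, Abcc9 lies almost on the line at -0.58, and the intervals of Kcnj11, Kcnj8 and Kcnj2 cross 0.

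Abcc8 was the more abundant of the 2 receptor genes, at 77.8% ± 2.32 (SD, n = 4) of their summed CPM per kilobase of longest transcript in the control mice and 72.1% ± 4.43 (SD, n = 6) in the mutant mice, with overlapping ranges. With the length of all annotated exons the shares were 70.3% and 63.6%, because the Abcc8 exons span 8090 bases together and its longest transcript 4877. Kcnj11 held 85.8% ± 3.03 (SD, n = 4) of the 2 pore genes in the control mice and 84.7% ± 3.49 (SD, n = 6) in the mutant mice. The pore and the receptor genes were therefore mostly Kcnj11 and Abcc8 in both groups.

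Kcnj8 and Abcc9 are also expressed in pericytes and smooth muscle, and markers of those cells are given beside them. Of the 5 pericyte markers none was called, Pdgfrb and Cspg4 being higher at an adjusted p under 0.05 only. Notch3 and Higd1b had log2 fold changes of 0.28 and 0.47, and Rgs5 had -0.22 (SE 0.12, edgeR adjusted p = 0.18). The sum of the 5 was 214 to 295 CPM in the control mice and 255 to 319.7 CPM in the mutant mice. Of the 4 smooth muscle markers Acta2 and Tagln were called higher and none lower. Myh11 had a log2 fold change of 0.23 (SE 0.27, edgeR adjusted p = 0.55) and Cnn1 of 0.87 (SE 0.33, edgeR adjusted p = 0.057). The groups overlapped for both. The sum of the 4, most of it Acta2, was 98.9 to 150.2 CPM in the control mice and 159 to 583 CPM in the mutant mice. The part of these cells in the levels of Kcnj8 and Abcc9 was not tested. Of 6 genes of the energy metabolism near the KATP channel, Prkaa2, a catalytic subunit of the AMP-activated kinase, was called lower (log2 fold change -0.75, SE 0.12). Ckmt2, the mitochondrial creatine kinase, was called higher (0.70, SE 0.17), and Ckm, the muscle creatine kinase, was higher at an adjusted p under 0.05 only (0.58, SE 0.14). Ckm was past the fold of 1.5 with DESeq2 (0.59), with limma (0.60) and with upper-quartile scaling (0.61). With the length trend removed Ckmt2 (0.52) and Prkaa2 (-0.54) were under the fold of 1.5, as was Ckmt2 without control M1 (0.58). Ak1, Prkaa1 and Ldhb did not pass the test.

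Of the background channels, Kcnk3, the gene of TASK-1, fell to 43.7% of its control level. It was at 238, 271, 266 and 280.3 CPM in control M1, M2, F1 and F2, and at 87.5, a median of 123 and 124 CPM in the mutant mice. The groups did not overlap, and mutant M2 was the lowest mouse. The means were 264 ± 18.0 CPM (SD, n = 4) and 115 ± 14.3 CPM (SD, n = 6), a log2 fold change of -1.19 (SE 0.10, edgeR adjusted p = 3.18e-06). Kcnk3 lies at chr5:30588170-30625271 on the plus strand and shares 229 exon bases with Gm9899 on the opposite strand. Gm9899 is among the genes of the table, and how reads over those bases were assigned is not known.

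Kcnk2, the gene of the stretch-activated channel TREK-1, was at the limit of detection. Its counts were 1, 1, 2 and 2 in the control mice and 0, 0, 0, 1, 2 and 6 in the mutant mice. A count of 0 allows a share of up to 3 counts of the library, at most 5.3e-05% here, for counting error only, and no difference was detectable at this depth (exact two-sided permutation test of the CPM, p = 0.92). The count of 6 was in mutant M2, which also had the most reads of the adipocyte markers Adipoq (62), Cidec (47) and Plin1 (31), against 0 to 11 reads of each in the other mice. The part of this in the count was not tested. Kcnk2 lies at chr1:189207930-189402273 on the minus strand and shares 604 exon bases with the antisense gene A430027H14Rik.

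The order of the levels changed between the groups. Per kilobase of longest transcript, the control mice had Kcnj5 at 99.3 CPM, Kcnj3 at 79.8 CPM and Kcnk3 at 69.3 CPM, ahead of Abcc8 at 50.2 CPM and Kcnj11 at 36.2 CPM. Kcnj2, Kcnj12, Abcc9, Kcnj8 and Kcnk2 followed at 25.9, 21.7, 14.2, 5.76 and 0.062 CPM per kilobase. Every control mouse showed this order between neighbours except for Kcnj3 and Kcnk3, where 3 of the 4 did. In the mutant mice Kcnk3, Kcnj11, Abcc8, Kcnj5, Kcnj2, Kcnj3 and Kcnj12 lay close together, from 30.3 down to 17.3 CPM per kilobase, and no pair of neighbours among them kept its order in all 6 mice. Below them Abcc9 at 9.55 CPM, Kcnj8 at 4.80 CPM and Kcnk2 at 0.064 CPM per kilobase kept their places. With the length of all annotated exons Abcc8 moved behind Kcnj11 in the control mice, at 30.3 against 30.9 CPM per kilobase, and to the seventh place in the mutant mice at 15.3.

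**Figure D4:**
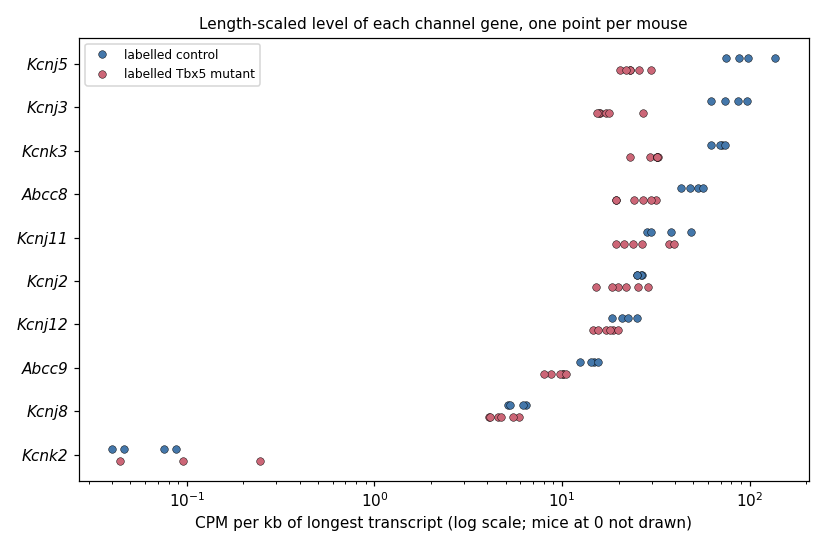
Level of each of the 10 genes in CPM per kilobase of longest transcript (x axis, log scale) in each mouse, with blue points for mice labelled control and red points for those labelled Tbx5 mutant, and mice at 0 left out (3 mutant mice for Kcnk2). In the control mice Kcnj5 and Kcnj3 lead at means of 99.3 and 79.8, while in the mutant mice 7 genes lie close together at means from 17.3 to 30.3.

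Most other members of both families were near the floor in these libraries. A mean under 1 CPM was seen for 6 of 9 further inward rectifier genes and 9 of 12 further K2P genes. Of 9 further inward rectifier genes 3 could be tested, and Kcnj13 was called lower (log2 fold change -0.70, SE 0.24, edgeR adjusted p = 0.039) and Kcnj14 higher (2.28, SE 0.71, adjusted p = 0.025). Both rested on few reads, 6 to 39 counts a mouse for Kcnj13 and 2 to 71 for Kcnj14, and the groups overlapped for both. Without 1 mouse the call was kept in 3 of the 10 fits for Kcnj13 and in 7 of the 10 for Kcnj14. Of 12 further K2P genes 3 could be tested, Kcnk5, Kcnk6 and Kcnk13, and none was called. Kcnk6, the highest of the 12, had means of 11.6 CPM in the control mice and 12.5 CPM in the mutant mice. The member Kcnj8 was close to it, at 14.7 and 12.2 CPM. Kcnj6 and Kcnj9, which encode the Kir3 subunits best known from neurons, had group means under 1 CPM, so Kcnj3 and Kcnj5 were nearly all of the Kir3 reads.

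**Figure D5:**
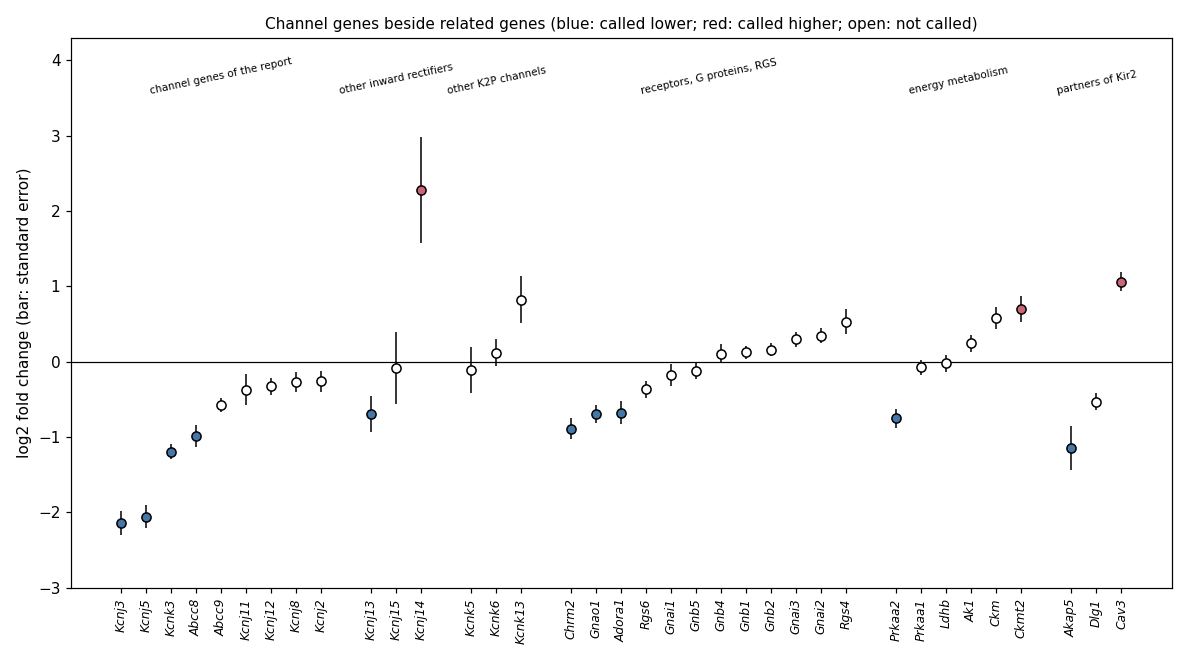
Log2 fold change with its standard error (y axis) of the 9 channel genes tested and of the tested genes of the related lists, ordered by value within each list, with blue points called lower, red points called higher and open points not called. Kcnj3 and Kcnj5 stand lowest, at -2.14 and -2.06, and Chrm2, Gnao1 and Adora1 lie between -0.89 and -0.68.

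Other cell types were read from their markers. Of the 4 endothelial markers none was called, and their sums overlapped, at 830.3 to 1197 CPM and 926 to 1129 CPM. Of the 4 fibroblast markers Col1a1 was called higher (log2 fold change 1.31, SE 0.21) and none lower, while Pdgfra was lower at an adjusted p under 0.05 only (-0.40, SE 0.11) and Dcn was at -0.01 (SE 0.12). The sum of the 4, most of it Dcn, was 2078 to 2549 CPM in the control mice and 2108 to 2784 CPM in the mutant mice. Of the 4 sinoatrial markers Hcn4 and Tbx3 were called lower from low levels, and the groups overlapped for both. Shox2 had a log2 fold change of 0.19 (SE 0.52, edgeR adjusted p = 0.80), and Isl1 could not be tested. The sum of the 4 was 7.0 to 22.3 CPM in the control mice and 5.83 to 10.3 CPM in the mutant mice. Among the 3 ventricular markers Myl2 was called higher, from a mean of 4.53 CPM to 19.4 CPM, with overlapping groups, and Irx4 was at or near 0. Myh7, the highest of the 3, was not called, at a log2 fold change of 0.92 (SE 0.54, edgeR adjusted p = 0.21). Its level ran from 131 to 245 CPM in the control mice and from 81.4 to 921 CPM in the mutant mice. The 3 neuron and Schwann cell markers were near 0, with a sum of 0.43 to 2.57 CPM in the control mice and 0.54 to 1.67 CPM in the mutant mice, and none could be tested. The part of these markers in the channel results was not tested.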

How the data were processed

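The authors deposited 1 table, which holds unnormalized whole-number read counts for every gene and library and a signal per gene and library, the count divided by a DESeq2 size factor. Columns with the authors' own comparison (fold changes and p-values) were not used. The submitters' processing notes name FastQC, TopHat2 2.0.11, featureCounts, DESeq2 and mm10, which is GRCm38. The labels describe both an mRNA-seq kit and ribosomal depletion, and the paper's own RNA-seq is of left atrium.

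Counts of all 10 libraries were fitted with edgeR 4.0.16 in R 4.3.3 (filterByExpr, TMM scaling, glmQLFit, prior count 0.125, no covariates), after samples were grouped by their labels. The thresholds, an adjusted p under 0.05, a fold change over 1.5 and a control mean over 1 in the deposited signal, are those of the paper for coding genes. CPM and their SD are over mice, and single values were compared by an exact two-sided permutation test over all 210 assignments. Gene lengths, loci and overlaps come from GENCODE M21, and promoter sequences from RefSeq, GRCm38.p6. On simulated counts for this comparison, where 195 of the 12950 genes had a fold change of 2, edgeR recovered 167 and made 6 other calls. Libraries were checked for duplicates over 21 pairs within groups, and the lowest chi-square per degree of freedom was 3.78. DESeq2 1.42.0, limma 3.58.1 and other settings were tried as alternatives. Totals of 5703775 to 7095141 counts limit the precision of low genes, and reads carry no molecular identifiers. The members and lists were chosen with earlier results of these data known. The genes named are Tbx5, the 10 members, the called genes of the related lists, and markers by list. Genes named beside these, which did not pass every threshold, were added after their values were seen. Some genes of the related and marker lists are not reported here.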

Additional observations from a re-analysis of the deposited data

Results flagged for a closer look

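Of 32 groups of values examined for a mouse far from the others of its group, 3 held one, where chance gives about 1.6 (1 in 20 groups). The Kcnj3 level of mutant M1 was 140.2 CPM, and the other 5 mutant mice were at 79.9 to 92.3 CPM. The Kcnk3 level of mutant M2 was 87.5 CPM, and the others were at 112 to 124 CPM. In the same mouse Kcnk3 made up 98.9% of the summed CPM per kilobase of Kcnk3 and Kcnk2, against 99.7 to 100% in the others, which follows from the 6 Kcnk2 reads there. Kcnj3 and Kcnk3 were called lower in each of the 10 fits that left out 1 mouse.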

How the results depend on the processing

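Kcnj3, Kcnj5, Abcc8 and Kcnk3 were called lower in all 23 alternative fits, and no member was called higher in any setting. Between 3 and 6 members were called lower over all settings. With a fold change over 2 there were 3, without Abcc8 at -0.99, where 367 of all 13084 genes were called lower. With no fold threshold there were 6, where 1967 of all genes were. The number of genes called, 2049 in the reported fit, moved to 4096 with no fold threshold, to 906 with a fold change over 2 and to 1284 with a mean count of at least 50, each as the rule is built. Leaving out each mouse in turn gave 1807 to 2205 genes called, 4 or 5 members lower and 0 members higher. The share of Abcc8 in the sum of Abcc8 and Abcc9 moved to 70.3% in the control mice and 63.6% in the mutant mice with the union of the exons as length.

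Kcnj12 lost its adjusted p with upper-quartile scaling (0.051), with limma (0.058) and in 5 of the fits without 1 mouse; the cause was not tested. Kcnj13 lost its adjusted p in 10 of 22 alternatives and Kcnj14 in 5.

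Replicate numbers are shared between the groups, but same-numbered mice did not deviate together (mean correlation -0.0071 over 4 pairs, 0.0013 over the 20 other pairs). Mutant F3 and M3 have no control mouse of the same number, so a fit with a replicate block rests on the 4 pairs. By Xist and Ddx3y each of these pairs joins mice of opposite sex. This fit gave 1957 called genes with 5 members lower, Abcc9 being added at -0.64, and Kcnj11 had an adjusted p of 0.044. With the block and the length trend removed together 1769 genes and 4 members were called. Kcnk2, tested only without the filter on low counts, had an adjusted p of 0.95. Adora1 lost its call in 3 of 23 alternatives, Gnao1 in 1, Ckmt2 in 3 and Prkaa2 in 2, in each case with the length trend removed among them, and Ckmt2 had an adjusted p of 0.061 with the block and the length trend removed.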
